A study of Homo sapiens with 15 samples.

Results

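The measurements concern the ERBB receptors and their feedback inhibitors, a set of 5 genes made up of the receptors EGFR, ERBB2 and ERBB3 and the inhibitors ERRFI1 and LRIG1. Members were chosen by gene symbol in the platform annotations, and only probe sets (groups of short array probes that report on a transcript) assigned to 1 gene were used. Of the 5 genes, 4 had such a probe set, out of 12149 genes in all, and ERRFI1 was not analysed here. EGFR had 6 probe sets, ERBB2 and ERBB3 had 2 each and LRIG1 had 1, which makes 11 of the 19707 probe sets assigned to 1 gene. Total RNA of 15 samples was measured on Affymetrix human gene arrays. All were HMT3522 breast epithelial cells, a progression series of human lines, in 3D culture in laminin-rich extracellular matrix (lrECM). S1 is the nonmalignant line (3 samples) and T4 the malignant line of the series (3 samples). T4R denotes T4 cells that the submitters call reverted (9 samples), each with another agent. The agents were the metalloproteinase inhibitor GM6001, an MMP/ADAM inhibitor, TNF protease inhibitor-2, the MAPK pathway inhibitor PD98059, the PI3K inhibitor LY294002, dominant-negative Rap1, the EGFR inhibitors Tyrphostin AG 1478 and mAb225, and the β1-integrin inhibitor AIIB2. The sources used here give no doses or times and do not say which samples received vehicle, each agent has 1 sample, and S1 and T4 are 1 cell line each.

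EGFR is a receptor tyrosine kinase of epithelial cells that binds ligands such as TGF-alpha, amphiregulin and HB-EGF and signals through the RAS-MAPK and PI3K pathways. ERBB2 binds no known ligand and acts as a partner of the other receptors, and ERBB3 binds neuregulins, has little kinase activity of its own and recruits PI3K when paired. ERRFI1 (also called MIG6) binds and inhibits the kinase domains after stimulation, and LRIG1 is a transmembrane protein that promotes the degradation of the receptors. In breast epithelium the family controls growth and survival, and blocking EGFR or β1-integrin is known to restore acinus-like organisation to T4 colonies.

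Promoter sequences are shown for EGFR and LRIG1, the members whose RNA varied most between samples. They are the 250 bases before annotated starts, from RefSeq on build GRCh38.p14, 5′ to 3′ on the gene's strand. The first EGFR window, chr7:55018767-55019016 on the plus strand, has a GC content of 73.6%, and capitals mark the 2 matches to the GC box GGGCGG on either strand (reverse complement CCGCCC). The second, chr7:55109589-55109838, precedes a start further downstream, has a GC content of 38.8%, and its capitals mark the 2 matches to the AP-1 motif TGANTCA, whose reverse complement is the same. The LRIG1 window, the first of 4 listed, chr3:66501122-66501371 on the minus strand, has a GC content of 66.8% and 3 GC box matches, in capitals. Of the member windows not shown, the LRIG1 window 4 holds 2 AP-1 matches and the ERBB2 window 1. A GC box was present in 42.6% and an AP-1 motif in 6.57% of all 35116 windows of the same length. No window of the 3 shown holds the FOXO motif TGTTTAC on either strand, which is in 2.98% of all windows. These matches are descriptions of the letters, and the arrays do not tell which start was used.
EGFR first window: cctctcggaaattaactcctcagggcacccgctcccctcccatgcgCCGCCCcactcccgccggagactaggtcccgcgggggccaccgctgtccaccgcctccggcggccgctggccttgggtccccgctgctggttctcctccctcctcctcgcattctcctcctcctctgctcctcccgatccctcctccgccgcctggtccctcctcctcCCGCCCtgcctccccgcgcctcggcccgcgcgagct
EGFR second window: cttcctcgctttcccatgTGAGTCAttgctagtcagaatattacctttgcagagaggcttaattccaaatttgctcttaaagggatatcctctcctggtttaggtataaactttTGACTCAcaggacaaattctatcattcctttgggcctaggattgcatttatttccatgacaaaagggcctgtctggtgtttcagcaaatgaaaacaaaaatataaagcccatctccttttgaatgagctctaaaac
LRIG1 window: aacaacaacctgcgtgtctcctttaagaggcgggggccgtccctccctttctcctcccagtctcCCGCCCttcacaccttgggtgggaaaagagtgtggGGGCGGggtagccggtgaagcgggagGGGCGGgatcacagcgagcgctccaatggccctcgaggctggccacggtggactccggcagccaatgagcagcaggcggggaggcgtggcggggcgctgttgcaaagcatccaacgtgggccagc

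The values were deposited in 2 tables, one for each array type. The first holds S1 samples 1 and 2, the 3 T4 samples, LY294002, GM6001 and the MMP/ADAM inhibitor, and the second holds S1 sample 3 and the other 6 agents. Values are log2 expression, with sample medians between 7.33 and 7.40 in the deposited tables. Among probe sets assigned to 1 gene, the lower quartile lay between 6.89 and 6.93. S1 sample 3 was at least 2-fold away from S1 samples 1 and 2 in 819 and 936 probe sets, and samples 1 and 2 differed so in 18. T4 sample 3 was as far from T4 samples 1 and 2 in 553 and 642 probe sets, although on the same array type, and samples 1 and 2 differed in 9. Epithelial markers were high, with KRT5 between 13.12 and 14.13 and KRT14 between 13.58 and 14.52, and all 8 measured of 9 lay above the median probe set. Endothelial and adipocyte markers lay below it (3 of 3 each), as did 3 of 4 leukocyte markers and 3 of 5 fibroblast markers. The summed log2 level of the fibroblast list was 36.57 to 36.74 in S1, 36.98 to 37.81 in T4 and 37.45 to 39.78 in T4R. Of the 8 epithelial markers, 2 were higher in T4 than in S1, against 10.4% of all genes (limma, adjusted p below 0.05). With the agents LAMB3 (-2.09) and KRT18 (-1.07) were lower and EPCAM (0.93) higher than in T4 (limma, adjusted p below 0.05). Of all genes, 5.75% were lower and 4.27% higher there. The sum of the leukocyte list was 27.67 to 27.97, 28.15 to 29.59 and 28.03 to 28.48 in that order. Within these lists, CD14 was higher than in S1 in T4 (0.97, adjusted p = 0.0198) and T4R (0.77, adjusted p = 0.0279), and COL1A1 in T4R (1.46, adjusted p = 0.0373, limma). PTPRC was lower in T4R than in S1 (-0.19, adjusted p = 0.0265, limma) and CD68 lower in T4R than in T4 (-0.25, adjusted p = 0.0351, limma). The part of these lists in the results was not tested.

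EGFR was the brightest member. The probe set 201983_s_at had a mean above that of 99.1% of probe sets. Its log2 level was 11.68, 11.23 and 12.59 in S1 samples 1 to 3 and 12.87, 13.05 and 11.62 in T4 samples 1 to 3. T4 samples 1 and 2 lay above all S1 samples, whereas T4 sample 3 lay within their range. Among the agents it was 12.45 with GM6001, 12.40 with the MMP/ADAM inhibitor, 12.75 with TNF protease inhibitor-2, 13.12 with PD98059, 13.20 with LY294002, 13.46 with dominant-negative Rap1, 13.11 with Tyrphostin AG 1478, 12.96 with mAb225 and 12.17 with AIIB2. Means were 11.83 ± 0.69 in S1, 12.51 ± 0.78 in T4 (SD, n = 3 each) and 12.85 ± 0.43 in T4R (SD, n = 9). Dominant-negative Rap1 and LY294002 had the highest EGFR values among the agents and AIIB2 the lowest.

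The other bright EGFR probe sets put the T4 samples in the same order. On 201984_s_at, S1 samples read 10.19, 9.55 and 10.74, T4 samples 11.44, 11.71 and 9.89, and T4R samples 10.17 to 12.16 with a median of 10.92. On 210984_x_at, S1 samples read 9.11, 8.92 and 9.74, T4 samples 10.65, 10.73 and 8.24, and T4R samples 8.80 to 11.81 with a median of 9.63. On 211607_x_at, S1 samples read 9.13, 8.69 and 9.64, T4 samples 10.68, 10.79 and 8.37, and T4R samples 8.73 to 11.73 with a median of 9.64. T4 sample 3 was therefore the lowest of all 15 samples on both probe sets ending in _x_at. In Affymetrix names that ending marks probes that may also bind other sequences, and _s_at marks probes shared by several transcripts. The remaining probe sets, 211550_at and 211551_at, stayed between 6.83 and 7.13 in all samples, near the lower quartile of the arrays. LY294002 and dominant-negative Rap1 held the top places among the agents on all 4 bright probe sets.

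**Figure D1:**
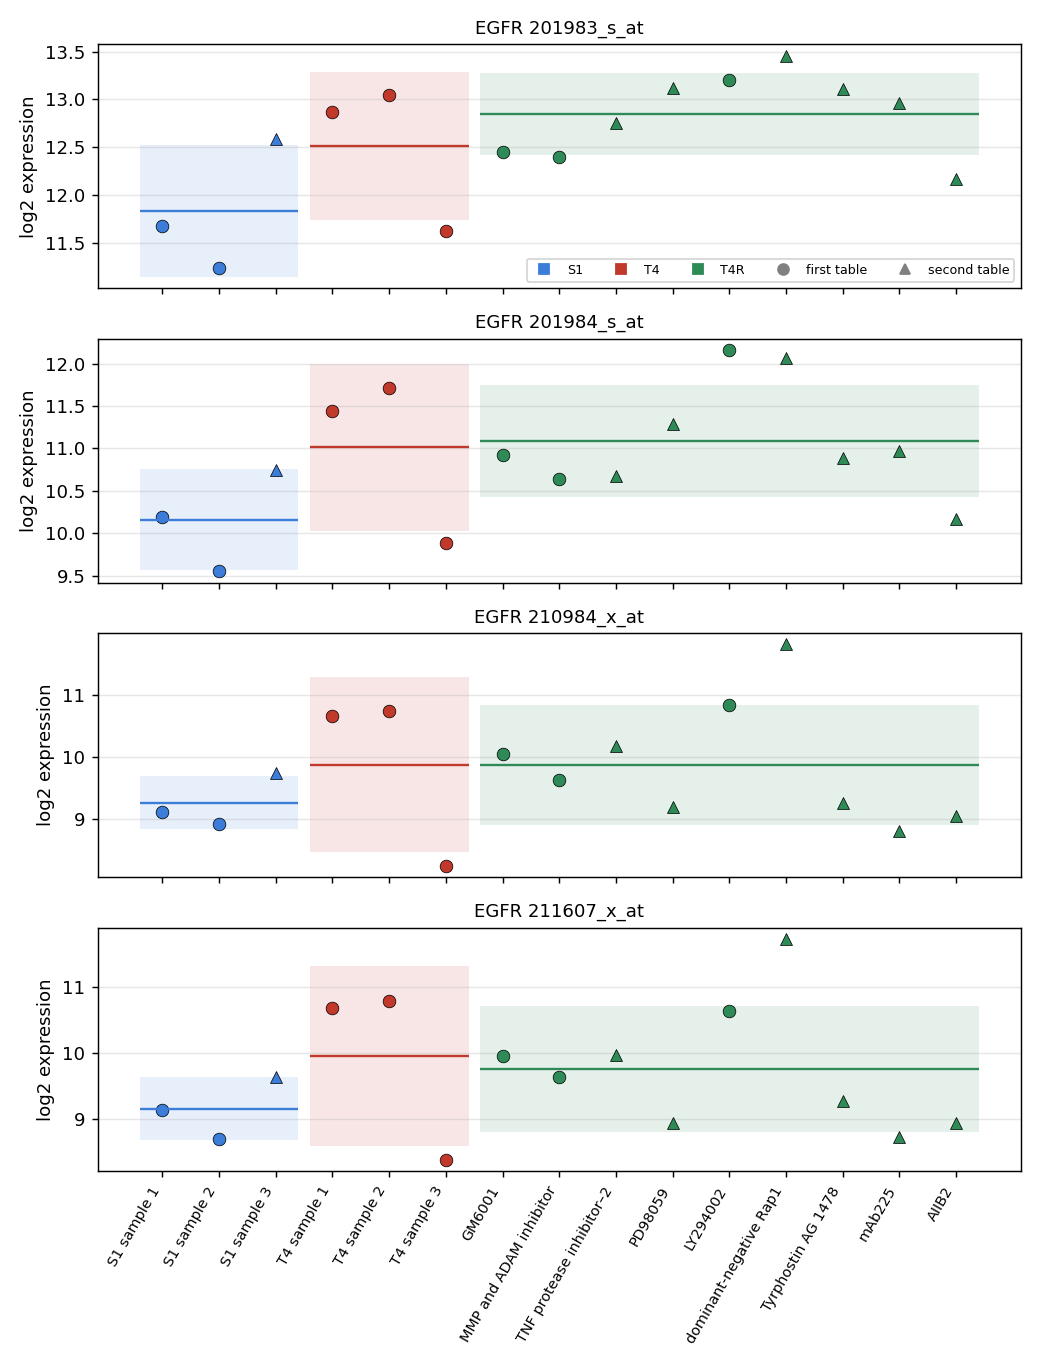
Log2 expression of the 4 bright EGFR probe sets in each of the 15 samples, coloured by group, with circles for the first and triangles for the second value table; lines are group means and bands ± 1 SD. T4 samples 1 and 2 lie above the S1 samples in every panel, T4 sample 3 at 11.62 on 201983_s_at does not, and dominant-negative Rap1 reaches 11.81 on 210984_x_at.

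None of the 11 member probe sets passed the test of T4 against S1, in which 17.4% of all probe sets were called (limma, adjusted p below 0.05). At an unadjusted p below 0.05 there was 1, for ERBB3, against 5708 of all 19707 probe sets (limma). EGFR 201983_s_at was higher in T4 by a log2 difference of 0.84 ± 0.41 (SE; 95% interval -0.05 to 1.72, adjusted p = 0.199, limma), a 1.79-fold difference that lies within the spread. The other bright EGFR probe sets gave 0.87 ± 0.57, 0.56 ± 0.80 and 0.73 ± 0.79, with adjusted p of 0.361, 0.721 and 0.613 (limma). The call changed with the samples used. Without T4 sample 3, 201983_s_at rose by 1.28 (adjusted p = 0.0342, limma). With dominant-negative Rap1 and the third S1 and T4 samples all left out it rose by 1.51 (adjusted p = 0.00627, limma). In that setting 4 of the 11 member probe sets were called. Over all probe sets, the alternative fits called 2231 to 5515, against 3433 in the main fit. The same 1.51 came with the replicate number and the table as blocks (adjusted p = 0.000434, limma). That fit rests on samples 1 and 2 because S1 sample 3 is alone in its table. Its scatter is that of samples 1 and 2, at least 2-fold apart in only 18 probe sets in S1 and 9 in T4. Whether equal numbers mark pairs was not established. With the replicate number as a block but no table term the difference was 0.68 (adjusted p = 0.560, limma). With array weights it was 1.31 (adjusted p = 0.00231, limma). Among samples of the first table only, it was 1.06 (adjusted p = 0.150, limma).

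With the agents, EGFR lay on both sides of its T4 level. T4R differed from T4 by 0.02 ± 0.38 on 201983_s_at (95% interval -0.80 to 0.84, adjusted p = 0.987, limma) and by 0.10 ± 0.74 on 210984_x_at (95% interval -1.51 to 1.70). Those intervals leave room for changes of more than 1.5-fold either way. After removal of the fitted difference between tables, single agents lay between -0.80 (AIIB2) and 0.69 (LY294002) from the T4 mean on 201983_s_at. On 210984_x_at they lay between -0.91 (mAb225) and 2.10 (dominant-negative Rap1). T4 samples themselves spanned -0.90 to 0.54 and -1.64 to 0.86 on these scales. On 201983_s_at all agents except LY294002 thus lay within the span of T4. That reading rests on the removed table difference, 0.47 for 201983_s_at (second minus first, adjusted p = 0.28, limma). The second table holds other agents, S1 sample 3 and no T4 sample. Array type, agent and the distance of S1 sample 3 cannot be told apart in this difference. In deposited values AIIB2 read 12.17, against a T4 mean of 12.51. There PD98059 (13.12), dominant-negative Rap1 (13.46) and Tyrphostin (13.11) also lay above the highest T4 sample (13.05). The remaining agents lay within the T4 span. T4R was higher than S1 on 201983_s_at by 0.86 ± 0.34 (adjusted p = 0.117, limma), and by 0.86 with an adjusted p of 0.0487 without T4 sample 3, whose removal changes the estimated spread. Array weights gave 1.00 (adjusted p = 0.00814, limma), and leaving out dominant-negative Rap1 and the third S1 and T4 samples gave 1.23 (adjusted p = 0.0129, limma).

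The bright EGFR probe sets did not keep a constant distance from each other across samples. The probe sets 210984_x_at and 211607_x_at stayed within -0.13 to 0.25 of each other in every sample. The pair ending in _s_at was less uniform, with 201983_s_at 1.04 to 2.22 above 201984_s_at. The mean of the _x_at pair minus the mean of the _s_at pair ranged from -3.20 to -0.99. A difference within an array shows unequal change, not which probe set is right. It was -1.81, -1.58 and -1.97 in S1 samples 1 to 3 and -1.49, -1.62 and -2.45 in T4 samples 1 to 3. With agents of the first table it was -1.69 for GM6001, -1.88 for the MMP/ADAM inhibitor and -1.95 for LY294002. In the second table it was -1.64 for TNF protease inhibitor-2, -0.99 for dominant-negative Rap1, -2.18 for AIIB2, -2.73 for Tyrphostin AG 1478, -3.14 for PD98059 and -3.20 for mAb225. The samples with the lowest values were thus both EGFR inhibitors and PD98059, all on the second array type, where S1 sample 3 stood at -1.97. T4 sample 3, which had no agent, stood lower than AIIB2. This difference was chosen after its values were seen and carries no test.

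**Figure D2:**
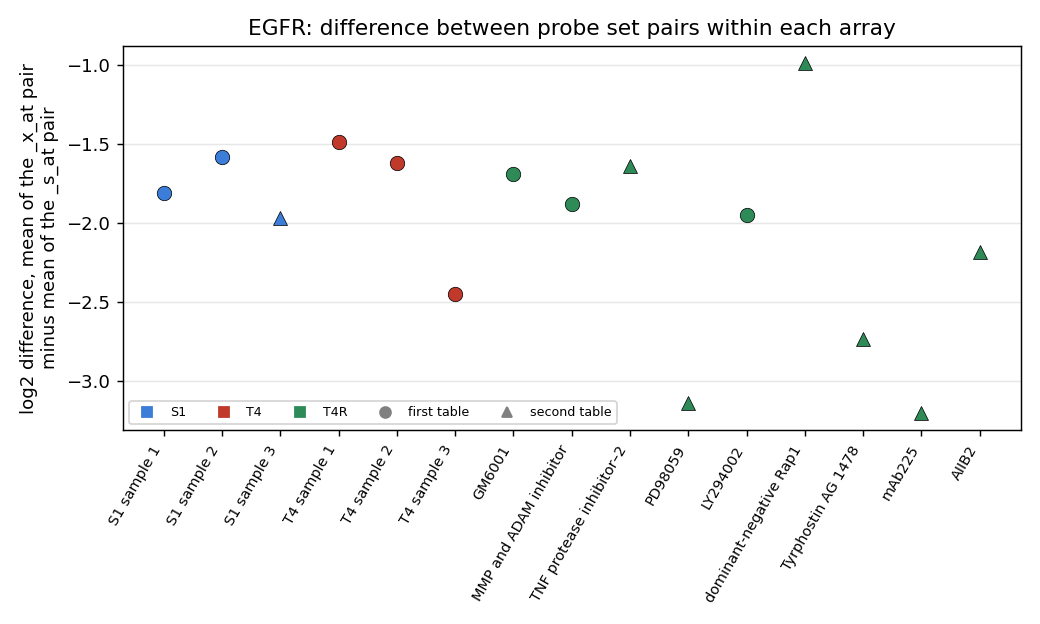
Log2 difference, within each array, between the mean of the 2 EGFR probe sets ending in _x_at and the mean of the bright pair ending in _s_at, for all 15 samples, coloured by group, with circles for the first and triangles for the second value table. mAb225 at -3.20, PD98059 at -3.14 and Tyrphostin AG 1478 at -2.73 are the lowest and dominant-negative Rap1 at -0.99 is the highest.

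Among the agents, the 2 labelled as EGFR inhibitors were compared with the other 7. None of the 11 member probe sets was called, and 0% of all 19707 were, with 1178 at an unadjusted p below 0.05 and 0 of the members (limma). The largest differences were on 210984_x_at (-1.12 ± 0.78, 95% interval -2.81 to 0.56, adjusted p = 0.867, limma) and 211607_x_at (95% interval -2.69 to 0.68, adjusted p = 0.880, limma). On 201983_s_at the difference was 0.05 ± 0.43 (95% interval -0.88 to 0.98). In the second table alone, which holds both EGFR inhibitors and 4 other agents, 210984_x_at gave -1.02 ± 0.79, and over all samples but dominant-negative Rap1 it gave -0.66 ± 0.68. For LRIG1 the difference was -0.14 ± 0.31, for ERBB2 216836_s_at 0.24 ± 0.22 and for ERBB3 202454_s_at -0.09 ± 0.07. With 2 samples against 7, differences of the size of the intervals could not be detected.

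ERBB2 was measured at a moderate level on 216836_s_at and near the lower quartile on 210930_s_at, which stayed between 6.76 and 7.10. On 216836_s_at, S1 samples read 7.61, 7.40 and 8.31 and T4 samples 7.73, 7.68 and 8.01. T4R samples read 7.46 to 8.43 with a median of 7.94, and the groups overlapped. This probe set differed between the value tables, with a table term of 0.52 (second minus first, adjusted p = 0.0378, limma, against 18.9% of all probe sets called for the table). The term comes from the T4R samples, whose agents differ between tables, and from S1, whose sample 3 alone is in the second. Array type, agent and the distance of S1 sample 3 cannot be told apart in this term. ERBB2 differed by 0.21 ± 0.22 between T4 and S1 (95% interval -0.27 to 0.68, adjusted p = 0.606, limma) and by -0.12 ± 0.20 between T4R and T4 (95% interval -0.56 to 0.31, adjusted p = 0.814, limma). Within the second table, PD98059 (8.40), dominant-negative Rap1 (8.43), Tyrphostin AG 1478 (8.42) and mAb225 (8.32) lay together with S1 sample 3, and TNF protease inhibitor-2 (7.80) and AIIB2 (7.69) lay lower.

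ERBB3 was dim. The probe set 202454_s_at had a mean above that of only 14.7% of probe sets, and 215638_at above that of 7.45%, so most of their signal may be background. On 202454_s_at, S1 samples read 6.82, 6.80 and 7.27 and T4 samples 6.71, 6.73 and 6.50. T4R samples read 6.55, 6.59 and 6.59 in the first table and 6.84 to 7.07 in the second. S1 lay above T4R within each table, although the pooled groups overlapped. It was the only member probe set called, lower in T4R than in S1 by 0.28 on the log2 scale (-0.28 ± 0.06, a 1.21-fold difference, adjusted p = 0.00789, limma), in a comparison that called 14.8% of all probe sets and 7.81% as lower. At an unadjusted p below 0.05 there were 3 of the 11 member probe sets in that comparison, with EGFR 201983_s_at and LRIG1 besides. Over all 19707 probe sets there were 5191, so the members did not stand out (limma). The table term of 202454_s_at, 0.39 (adjusted p = 0.00219, limma), exceeded that difference. The call ended without S1 sample 3 (-0.24, adjusted p = 0.0842), in the first table alone (-0.24, adjusted p = 0.101), with no table term (-0.15, adjusted p = 0.546), with table as random block (-0.23, adjusted p = 0.119) and with quantile normalization across tables (-0.12, adjusted p = 0.615, all limma). T4 differed from S1 by -0.19 ± 0.07 (adjusted p = 0.102, limma) and T4R from T4 by -0.09 ± 0.07 (adjusted p = 0.538, limma). On 215638_at no comparison was called, with differences of -0.11 to 0.02.

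LRIG1, the inhibitor that was measured, read 7.49, 7.39 and 8.58 in S1 samples 1 to 3 and 7.11, 7.40 and 6.87 in T4 samples 1 to 3. With the agents it was 7.28 (GM6001), 7.0 (MMP/ADAM inhibitor), 7.14 (TNF protease inhibitor-2), 7.51 (PD98059), 7.65 (LY294002), 7.84 (dominant-negative Rap1), 7.20 (Tyrphostin AG 1478), 7.45 (mAb225) and 6.84 (AIIB2). S1 sample 3 was the highest of all samples, and T4 sample 2 overlapped with S1. T4 was lower than S1 by -0.60 ± 0.30 (95% interval -1.23 to 0.04, adjusted p = 0.205, limma) and T4R lower than S1 by -0.60 ± 0.24 (95% interval -1.13 to -0.07, adjusted p = 0.132, limma), neither of which passed. In the first table alone, which lacks S1 sample 3, these were -0.31 (adjusted p = 0.362) and -0.13 (adjusted p = 0.778, limma). T4R and T4 differed by 0.00 ± 0.27 (95% interval -0.59 to 0.59). The agents with the highest LRIG1, dominant-negative Rap1 and LY294002, were also those with the highest EGFR, and AIIB2 had the lowest LRIG1 and the lowest EGFR on both probe sets ending in _s_at.

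**Figure D3:**
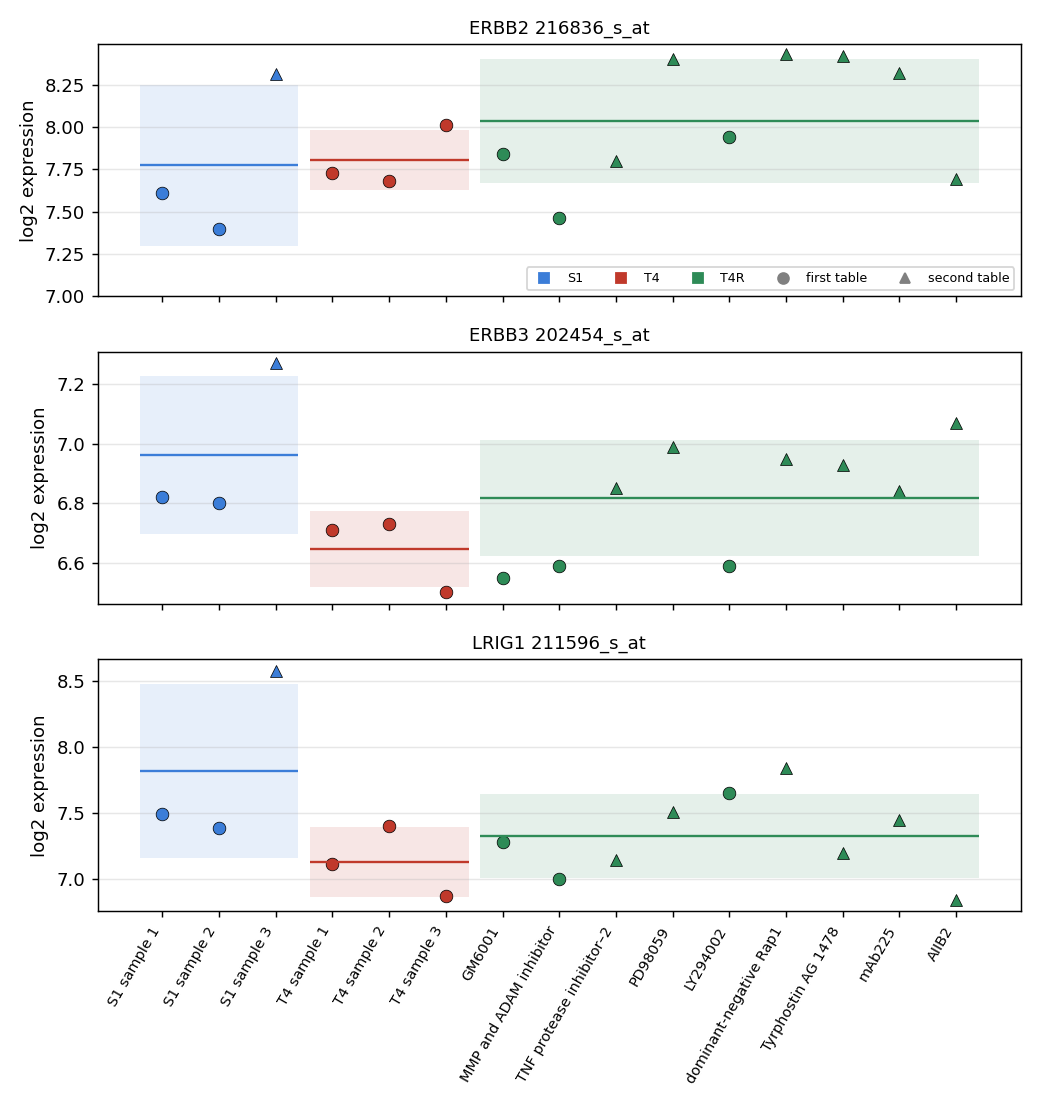
Log2 expression of ERBB2 216836_s_at, ERBB3 202454_s_at and LRIG1 211596_s_at in each of the 15 samples, coloured by group, with circles for the first and triangles for the second value table; lines are group means and bands ± 1 SD. S1 sample 3 lies above the other S1 samples in every panel, at 8.31, 7.27 and 8.58, and ERBB3 in T4R separates by table.

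Across the 11 member probe sets the T4R against T4 comparison called none, against 8.91% of all probe sets (limma). None had an unadjusted p below 0.05, against 4256 of all 19707 probe sets (limma). The median of their differences was 0.00, the same as over all probe sets. In T4 against S1 the median was 0.11 for the members and -0.01 for all probe sets.

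**Figure D4:**
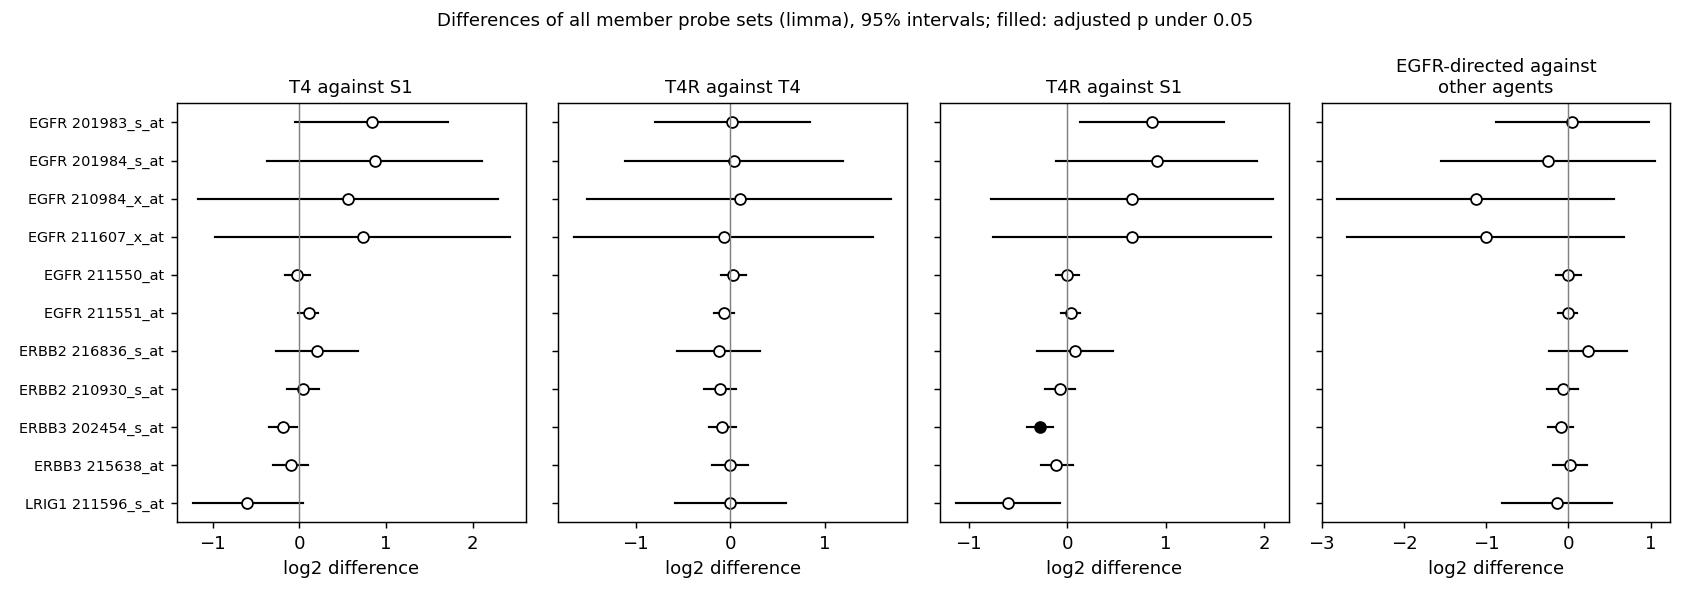
Log2 differences of all 11 member probe sets in 4 comparisons, with limma's 95% intervals; filled points have an adjusted p below 0.05. ERBB3 202454_s_at in T4R against S1, at -0.28, is the single filled point, and the widest intervals belong to the EGFR probe sets ending in _x_at.

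Some ERBB ligands differed between the groups. Counts over genes use the brightest probe set of each gene. Of all 12149 genes, 19.5% were called in T4 against S1 (10.4% higher, 9.1% lower), 10% in T4R against T4 (4.27% higher, 5.75% lower) and 16.9% in T4R against S1 (8.16% higher, 8.7% lower). Of 7 measured ERBB ligands, 3 were higher in T4 and none lower (list median 0.83, against -0.01 over all genes), and the same 3 were lower in T4R than in T4 (list median -0.64). HBEGF, whose membrane-bound precursor is cut by ADAM proteases, rose by 2.89 ± 0.16 in T4 (adjusted p = 1.9e-07, limma) and fell by 2.83 on the log2 scale with the agents. EREG, which encodes epiregulin, rose by 2.52 ± 0.32 (adjusted p = 0.000152, limma) and changed by -2.29 ± 0.29 with the agents. TGFA changed by 1.27 ± 0.35 and -1.42 ± 0.33 (adjusted p = 0.0247 and 0.0163, limma). Its rise missed the threshold without S1 sample 1 (0.103), S1 sample 2 (0.0824), T4 sample 1 (0.0544) or T4 sample 3 (0.0911), in the first table alone (0.0869) and in the fit of S1 and T4 only (0.103). Its fall did so without GM6001 (0.0505), the MMP/ADAM inhibitor (0.0548) or T4 sample 3 (0.0639), in the first table alone (0.11), and without dominant-negative Rap1 and the third S1 and T4 samples (-0.96, adjusted p = 0.067). That last setting gave 5 ligand calls in T4 against S1. NRG1, a ligand of ERBB3, differed by 0.83 ± 0.31 and -0.64 ± 0.29 and passed neither test. The 2 comparisons share the T4 samples.

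Phosphatases that act on the receptors also differed. Of 7 measured, 3 were higher and 2 lower in T4 than in S1, against 10.4% and 9.1% of all genes. These 5 calls became 3 with the replicate block and no table term. That setting called 2275 of all probe sets, against 3433 in the main fit. PTPN1 rose by 0.81 ± 0.13 and PTPN2 by 0.79 ± 0.11, with adjusted p of 0.0011 and 0.000298, and both encode non-receptor phosphatases. PTPRF, a receptor-type phosphatase, differed by -1.28 ± 0.17 (adjusted p = 0.000271, limma) and PTPN6 by -0.71 ± 0.13 (adjusted p = 0.00163, limma). With the agents 3 of the 7 fell, against 5.75% of all genes. Among the 3 were PTPN1 (-0.98 ± 0.13, adjusted p = 0.000492, limma) and PTPRF (-0.92 ± 0.16, adjusted p = 0.00359, limma). PTPRF thus ended further from S1 at -2.20 ± 0.14. The 3 became 5 with array weights and without dominant-negative Rap1 and the third S1 and T4 samples. Over all probe sets, array weights called 3700 in T4R against T4, against 1755 in the main fit. PTPN12, a cytoplasmic phosphatase, was the third gene in both counts (0.75 and -0.72, adjusted p = 0.0233 and 0.0323, limma). Its rise missed the threshold in 8 of 27 alternatives, among them the replicate block with no table term (0.065) and leaving out any one of the S1 samples (0.0502 to 0.0649), T4 sample 1 (0.0506) or T4 sample 3 (0.0846). Its fall missed it without T4 sample 1 (0.0758), T4 sample 3 (0.126), GM6001 (0.074) or the MMP/ADAM inhibitor (0.0948). The change of PTPRF with the agents missed the threshold with no table term (-0.45, adjusted p = 0.288), and that in T4 did so with the replicate block and no table term (-1.52, adjusted p = 0.0536, limma).

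Adaptors and transducers were higher in 3 and lower in 1 of 18 measured genes in T4, near the 19.5% called over all genes. These 4 calls became 9 with the replicate and table blocks, and 7 with array weights or without dominant-negative Rap1 and the third S1 and T4 samples. Over all 19707 probe sets, those blocks called 5481 and array weights 5515, against 3433 in the main fit. GRB7, an adaptor among the higher genes (0.67, adjusted p = 0.0433, limma), missed the threshold in 15 of 27 alternatives. CRKL, an adaptor, rose by 0.78 ± 0.14 (adjusted p = 0.00182, limma), and the transcription factor gene STAT5B was lower by -1.17 ± 0.08 (adjusted p = 9.35e-07, limma) and also lower in T4R than in S1 (-1.15 ± 0.07). With the agents 3 of 18 were lower and none higher, against 5.75% and 4.27% of all genes. Among the 3 was SHC1, which couples the receptors to RAS (-0.79 ± 0.17, adjusted p = 0.0112, limma). SHC1 missed the threshold with no table term (-0.41, adjusted p = 0.279). The count fell to 1 without LY294002, GM6001 or the MMP/ADAM inhibitor, and also without either of T4 samples 1 and 2.

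Over all genes, 19.5% were called in T4 against S1 and 10% in T4R against T4. Ubiquitin ligases and sorting genes that control receptor turnover were called in none of 19 measured genes in either comparison. In T4R against S1, 2 of the 19 were higher and 1 was lower, against 8.16% and 8.7% of all genes. The count of 0 in T4 against S1 and T4R against T4 was not stable. In T4 against S1 it was 4 with array weights, 3 with the replicate and table blocks, 0 to 2 with single samples left out, and 0 in 11 of 27 alternatives. Over all 19707 probe sets, array weights called 5515 and those blocks 5481, against 3433 in the main fit. In T4R against T4 the turnover count was 3 with array weights, 0 to 2 with single samples left out, and 0 in 18 of 24. Over all probe sets, array weights called 3700 in T4R against T4, against 1755 in the main fit. Among 14 other partners, the scaffold gene ERBIN, whose protein binds ERBB2, was the single call in T4 against S1 (-0.50 ± 0.11, adjusted p = 0.00738, limma), and none was called with the agents. The count in T4 against S1 was 2 without dominant-negative Rap1 and 4 with the replicate and table blocks. Both ERBB4 and LRIG2, the other receptor and a relative of LRIG1, were not called. In the PI3K and FOXO arm, AKT1 was higher and FOXO1 and PDK4 lower in T4, out of 10 measured, against the 19.5% over all genes. These 3 calls became 5 with the replicate and table blocks. FOXO1 changed by -2.35 ± 0.36 in T4 (adjusted p = 0.000596, limma) and by 1.34 ± 0.33 with the agents (adjusted p = 0.0228, limma), which missed the threshold without GM6001 (0.0588), without the MMP/ADAM inhibitor (0.0584), in the first table alone (0.126) or with no table term (0.137). Its difference in T4 missed it in a fit of S1 and T4 alone (-2.38, adjusted p = 0.0668, limma). AKT1 (0.70 ± 0.13) missed it with quantile normalization across tables (0.52, adjusted p = 0.0691, limma). PDK4 differed by -1.90 ± 0.11 in T4 and still by -1.71 ± 0.09 in T4R against S1. FOXO1 also stayed lower in T4R than in S1 (-1.01 ± 0.29, adjusted p = 0.0346, limma), which missed the threshold in 7 of 24 alternatives. In that comparison 1 of the 10 genes was higher and 5 were lower, against 8.16% and 8.7% of all genes. The number of calls was 1 to 6 over the alternatives. Of 55 values of further probe sets of the called pathway genes, 24 were called in the same direction, 31 were not called and none was called in the opposite direction. The other CRKL probe set gave 0.05 in T4 against S1 (adjusted p = 0.93, limma). For HBEGF, 1 further probe set gave 2.15 and -2.12 in the 2 comparisons and another -0.10 and 0.05, and no further PTPN12 probe set was called.

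**Figure D5:**
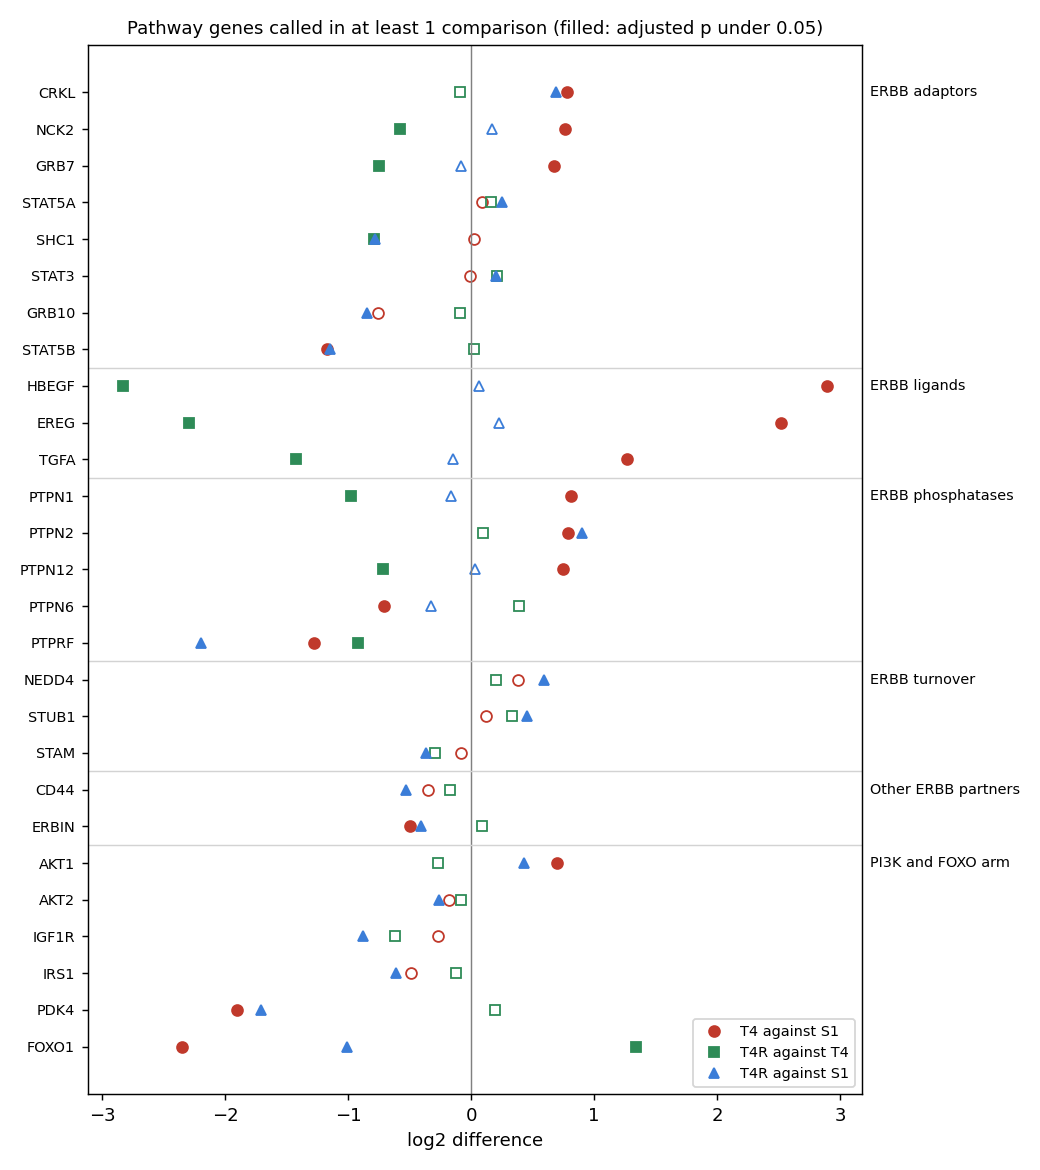
Log2 differences of the genes of 6 pathway lists that were called in at least 1 of 3 comparisons; filled symbols have an adjusted p below 0.05 and lines separate the lists. The ligands HBEGF (2.89), EREG (2.52) and TGFA (1.27) lie far right for T4 against S1 and far left for T4R against T4.

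Other genes with like patterns were ranked by the root mean square difference of centred log2 values over the 15 samples, after removal of the table difference. For EGFR 201983_s_at, whose own SD was 0.59, the closest were NEDD9 (0.28), DLK2 (0.29) and CADM1 (0.31). For LRIG1, with an SD of 0.42, they were DOCK9 (0.18), ADGRG6 (0.20) and PYGB (0.21). For ERBB2 216836_s_at, with an SD of 0.26, they were AGRN (0.15), OBSL1 (0.16) and MED1 (0.16). For ERBB3, with an SD of 0.13, RGS16, DISC1 and TBC1D9B all had 0.07. No test was made on these distances.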

How the data were processed

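Values are log2 expression in 2 deposited tables of 8 and 7 samples, with the same 22215 probe sets. That the deposited values are log2 follows from their range of 6.21 to 14.5; summarisation, background correction, normalization and genome build: not given in the sources used here. Per the labels, RNA was extracted with Trizol and labelled by Affymetrix's protocol. Platform annotations named 1 gene for 19707 probe sets, several for 614, none for 1706 and different genes for 188, and symbols were updated through RefSeq's gene table (19689).

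Differences were tested with limma 3.58.1 (R 4.3.3; lmFit, eBayes, 2-sided) over all 19707 probe sets with no filter, Benjamini-Hochberg adjusted, threshold 0.05. Groups were S1, T4 and T4R, with the table as a fixed block. A second fit split T4R by the EGFR inhibitor label. The steps were tested on simulated data. Means and SDs are of deposited values; differences, SEs and intervals come from the fit. Whether samples of 1 group were separate cultures is not said in the labels. The p-values thus reflect only the scatter of these samples, whose number limits the precision. Within S1 and within T4 that scatter is possibly technical. T4R pooled samples that each had another agent, so the spread in fits with T4R also holds differences between agents. This applies to T4 against S1 too, except in the fits of S1 and T4 only. How much each source contributed was not tested.

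Deviations of same-numbered S1 and T4 samples from their group means correlated (r over probe sets 0.26, 0.31 and 0.38 for numbers 1 to 3). Sample 3 lay apart in both groups and differently numbered samples were not compared, so these values do not show pairing. The fit blocked by number is given as an alternative. Named genes were all member probe sets, the brightest standing for a gene, up to 4 called genes a list with smallest adjusted p or otherwise described, and the 3 closest patterns. Members and lists were chosen with earlier results of these data known. Alternatives were the table term, normalization, filters, array weights, subsets of samples, the replicate block and leaving out each sample.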

Additional observations from a re-analysis of the deposited data

How the results depend on the processing

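The number of member probe sets called in T4 against S1 (0) became 3 of 11 with array weights. It became 4 with the replicate block and the table block, or without dominant-negative Rap1 and the third S1 and T4 samples. With single samples left out it was 0 to 1. Over all 19707 probe sets the calls rose too, from 3433 to 5515 with array weights and to 5481 with both blocks. In T4R against S1 the 1 call became 0 with no table term, a random table block, quantile normalization across tables, the first table alone and both filters on dim probe sets, which remove ERBB3 itself. It became 2 with array weights and 4 without those 3 samples, and 0 to 2 with single samples left out. Over all probe sets, array weights called 4835 in T4R against S1, against 2922 in the main fit. In T4R against T4 and between agents the count was 0 in every alternative run. The replicate block without the table called 0 members in T4 against S1.

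The differences that changed sign were uncalled. For T4R against T4 they were: EGFR 201983_s_at -0.31 (array weights) and -0.28 (without the 3 samples); 210984_x_at -0.01 (no table term) and -0.53 (array weights, and without the 3 samples); ERBB2 0.22 (no table term), 0.00 (random table block), 0.24 (quantile across tables) and 0.04 (without the 3 samples); ERBB3 0.17, 0.01 and 0.17 in the first 3 of these; LRIG1 0.20, 0.07 and 0.19 in the same 3, 0.01 (quantile within tables), 0.19 (first table alone) and 0.06 (without the 3 samples). In T4 against S1, ERBB2 was -0.01 with quantile normalization across tables. Between agents, EGFR 201983_s_at was -0.02 (quantile within tables), ERBB3 0.08 (no table term, and quantile across tables) and LRIG1 0.00, 0.01 and 0.16 (no table term, array weights, without the 3 samples). With single samples left out, the T4R against T4 range was -0.43 to 0.29 for EGFR 201983_s_at, -0.72 to 0.52 for 210984_x_at and -0.21 to 0.19 for LRIG1; ERBB2 in T4R against S1 ranged from -0.01 to 0.24, and EGFR 201983_s_at between agents from -0.18 to 0.18. The causes were not tested.

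Over all probe sets, array weights raised the calls from 3433 to 5515 (T4 against S1), 1755 to 3700 (T4R against T4) and 2922 to 4835 (T4R against S1). T4 against S1 had 5481 with the replicate and table blocks, 2275 with the replicate block alone and 2231 without S1 sample 2. Between agents 89 were called without PD98059. Dim signals limit ERBB3 and 210930_s_at, 211550_at and 211551_at.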
